A study of Mus musculus with 7 samples.

Results

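The binding of Oct1 (gene Pou2f1) was compared between day 3 and day 6 of the differentiation of mouse embryonic stem cells (ESCs) towards mesoderm, as given by the authors' peak lists from chromatin immunoprecipitation followed by sequencing. The day 3 list held 4867 peaks and the day 6 list 7758, together 12625 of the 53151 peaks in the 4 lists of the series. Both lists come from cells labelled parental, and the labels name the same Oct1 antibody for both. Per the labels' protocols the cells received Bmp4 in N2B27 medium for 2 days and then, for 4 days, Rspo3 together with LDN-193189 in a DMEM-based medium. Rspo3 (R-spondin 3) is a secreted amplifier of Wnt signalling, and LDN-193189 is an inhibitor of BMP type I receptors. Counted from the start of Bmp4, day 3 lies early and day 6 at the end of the Rspo3 and LDN-193189 phase, although the labels do not say from when days were counted. All 7 samples are of parental cells; 2 are described here, the ESC Oct1 and Oct4 lists serve only as a reference, and the inputs were not used. The design text also names a conditional knockout and a retinoic acid arm, which were not analysed here. Each day had 1 library, so no difference can be set against replicate error and no test was made. Intervals below are exact Clopper-Pearson 95% intervals that cover the counting of peaks, genes or promoters only. The lists hold no reads, so depth is unknown, and the cell type named in the labels cannot be checked from binding data.

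Oct1 is a POU-domain transcription factor found in most cell types. Its bipartite DNA-binding domain recognises the octamer, and it also binds other arrangements of POU-domain subsites, among them the palindromic MORE motif, on which it can sit as a dimer. Textbook targets are the promoters of histone H2B genes, where Oct1 takes part in S-phase transcription, and the distal elements of small nuclear RNA (snRNA) genes, where it helps recruit the snRNA activating complex. In the text below a site present only in the day 3 list is called lost, a site present only in the day 6 list gained, and a site with overlapping peaks (1 bp or more) in both lists kept. These words describe the lists, because a peak can drop below a caller's threshold without binding having ended. In bulk chromatin, binding in fewer cells and weaker binding in every cell cannot be told apart.

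The promoter sequences shown next carry the contrasts that the values describe, namely octamer promoters whose peak was lost (H2bc12, a histone H2B gene, and Cdx2, a regulator of posterior mesoderm), octamer promoters with overlapping peaks on both days and a lower rank at day 6 (H2bc3, another H2B gene, and Lgr4, a receptor for R-spondins), promoters kept among the leading sites (Kdm2b, which recruits a polycomb complex to unmethylated CpG islands, and Gadd45a, a stress-response gene), and promoters without an octamer whose rank was higher or whose peak was new at day 6 (Anapc2, a subunit of the anaphase-promoting complex, and Sgta, a co-chaperone). Each runs 5′ to 3′ on the gene's strand from 250 bases before the start site to 50 bases after it, from RefSeq on GRCm38.p6. Capitals mark the octamer ATGCAAAT or its reverse complement ATTTGCAT in the first 4 and in Gadd45a, the MORE motif in Kdm2b, and the ETS core CCGGAAG or its reverse complement CTTCCGG in Anapc2 and Sgta. The windows are chr13:22035571-22035870 (+ strand) for H2bc12, chr5:147307200-147307499 (- strand) for Cdx2, chr13:23746484-23746783 (+ strand) for H2bc3, chr2:109917397-109917696 (+ strand) for Lgr4, chr5:122900301-122900600 (- strand) for Kdm2b, chr6:67037358-67037657 (- strand) for Gadd45a, chr2:25272216-25272515 (+ strand) for Anapc2 and chr10:81060127-81060426 (- strand) for Sgta.
H2bc12: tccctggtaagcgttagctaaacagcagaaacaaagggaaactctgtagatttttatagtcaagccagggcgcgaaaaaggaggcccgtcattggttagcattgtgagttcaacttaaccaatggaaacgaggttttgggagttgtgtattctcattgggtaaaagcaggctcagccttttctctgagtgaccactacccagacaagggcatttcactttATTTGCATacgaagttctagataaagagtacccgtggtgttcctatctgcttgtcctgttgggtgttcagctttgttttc
Cdx2: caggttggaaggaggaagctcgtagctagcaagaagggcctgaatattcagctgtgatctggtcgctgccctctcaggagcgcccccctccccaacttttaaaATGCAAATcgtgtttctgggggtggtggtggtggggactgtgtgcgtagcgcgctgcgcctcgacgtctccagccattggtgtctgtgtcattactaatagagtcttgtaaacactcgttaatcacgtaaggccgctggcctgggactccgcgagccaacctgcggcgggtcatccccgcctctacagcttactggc
H2bc3: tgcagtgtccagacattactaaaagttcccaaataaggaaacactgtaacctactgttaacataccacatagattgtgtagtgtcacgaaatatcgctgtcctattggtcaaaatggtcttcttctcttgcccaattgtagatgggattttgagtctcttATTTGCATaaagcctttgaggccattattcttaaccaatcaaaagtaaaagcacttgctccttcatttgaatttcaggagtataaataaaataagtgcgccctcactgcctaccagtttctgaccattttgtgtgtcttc
Lgr4: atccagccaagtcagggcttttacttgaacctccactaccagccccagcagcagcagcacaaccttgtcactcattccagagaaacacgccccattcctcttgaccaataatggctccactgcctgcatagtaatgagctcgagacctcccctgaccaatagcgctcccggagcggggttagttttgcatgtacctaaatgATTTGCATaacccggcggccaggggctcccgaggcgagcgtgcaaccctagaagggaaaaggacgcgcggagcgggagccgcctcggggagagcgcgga
Kdm2b: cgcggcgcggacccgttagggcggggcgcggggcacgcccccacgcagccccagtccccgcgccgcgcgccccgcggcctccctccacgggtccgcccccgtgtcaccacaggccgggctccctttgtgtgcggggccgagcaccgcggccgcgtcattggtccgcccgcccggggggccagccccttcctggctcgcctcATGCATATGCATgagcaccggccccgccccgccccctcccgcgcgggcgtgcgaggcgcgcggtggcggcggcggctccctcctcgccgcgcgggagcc
Gadd45a: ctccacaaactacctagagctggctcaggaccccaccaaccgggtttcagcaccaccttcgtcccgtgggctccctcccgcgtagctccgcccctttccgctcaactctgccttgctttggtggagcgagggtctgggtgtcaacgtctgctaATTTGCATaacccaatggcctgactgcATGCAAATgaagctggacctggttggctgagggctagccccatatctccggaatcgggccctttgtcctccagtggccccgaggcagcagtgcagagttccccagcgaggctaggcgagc
Anapc2: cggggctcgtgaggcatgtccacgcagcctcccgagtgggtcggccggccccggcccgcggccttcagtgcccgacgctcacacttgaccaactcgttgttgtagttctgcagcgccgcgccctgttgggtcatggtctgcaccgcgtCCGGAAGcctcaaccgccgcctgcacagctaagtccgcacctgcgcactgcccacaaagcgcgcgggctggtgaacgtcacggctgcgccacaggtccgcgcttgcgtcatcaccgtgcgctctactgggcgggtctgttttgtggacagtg
Sgta: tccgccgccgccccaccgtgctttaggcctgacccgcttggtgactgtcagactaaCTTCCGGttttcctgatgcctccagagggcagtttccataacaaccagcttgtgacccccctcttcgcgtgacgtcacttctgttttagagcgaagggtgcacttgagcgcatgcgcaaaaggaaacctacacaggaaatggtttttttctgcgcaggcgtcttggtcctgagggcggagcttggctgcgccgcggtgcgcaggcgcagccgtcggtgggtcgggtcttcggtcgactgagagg
The octamer begins 30 bases before the start of H2bc12, 147 before that of Cdx2, 90 before that of H2bc3 and 49 before that of Lgr4. Gadd45a carries 2 octamers, whose first bases lie 97 and 70 bases before its start.

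The lists shared 2845 of the day 3 peaks (58.5%) and 2841 of the day 6 peaks (36.6%), which left 2022 and 4917 without a counterpart. Merging overlapping peaks gave 9772 sites, of which 2833 were kept, 2022 lost and 4917 gained. The score, a whole number per peak without a stated unit, was used here only as a rank within its own list. Ranks below are out of 4867 at day 3 and out of 7758 at day 6. A larger rank number at day 6 is therefore not by itself a lower place in the list. Among the 100 highest day 6 scores 99 lay at a day 3 peak, whereas 83 of the 100 highest day 3 scores lay at a day 6 peak. The sharing of day 3 peaks was 11.5% in the lowest decile of scores, 81.9% in the next-highest decile and 77.2% in the highest. The sharing of day 6 peaks went from 6.45% in the lowest decile to 79.9% in the highest. So 17 of the first 100 day 3 peaks had no counterpart, against 1 of the first 100 day 6 peaks, but the contrast was limited to the very top. Among the first 500 the numbers were 112 and 87, and with a limit at rank 1000, where ties add a few peaks, they were 202 of 1001 and 219 of 1003. In the highest decile of day 3 scores 58.7% of peaks lay at an ESC Oct1 peak, against 24.8% in the decile below it.

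**Figure D1:**
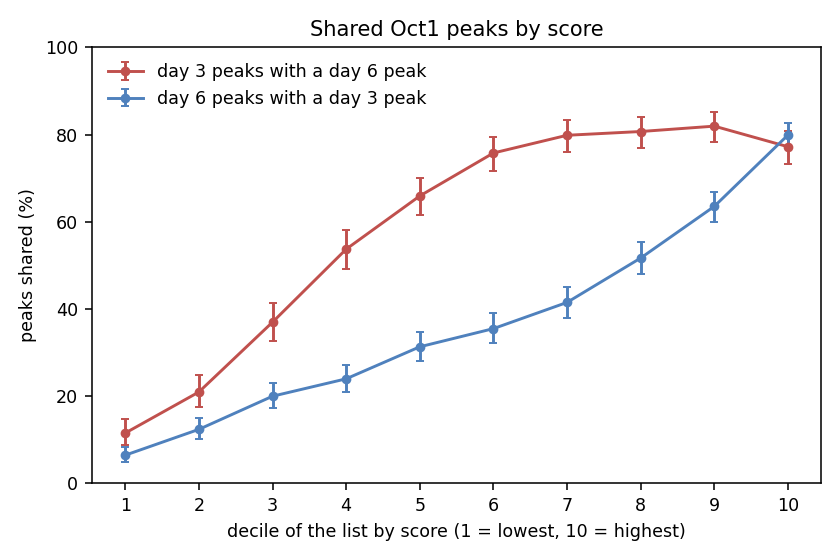
Share of peaks that overlap a peak of the other day, by decile of the authors' score within each list, with exact 95% intervals (counting error only). Day 6 peaks are shared more with each higher decile, up to 79.9%, while day 3 peaks reach 81.9% in the next-highest decile and 77.2% in the highest.

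Lost and gained sites lay in different parts of the genome. Of the lost sites 26.5% (24.5 to 28.4) were centred less than 1 kb from a gene end (the first or last annotated base of a gene), against 82.2% of the kept sites (80.7 to 83.6) and 73.0% of the gained ones (71.7 to 74.2). The same order held for annotated transcription start sites, with 18.6% of lost, 74.5% of kept and 64.7% of gained sites within 1 kb of one. A midpoint inside a gene was found for 64.8% of lost, 70.2% of kept and 75.4% of gained sites. Lost sites coincided more often with Oct1 sites of undifferentiated cells. An ESC Oct1 peak overlapped 51.6% of them (49.4 to 53.8), against 18.6% of kept (17.2 to 20.05) and 13.2% of gained sites (12.3 to 14.2), and an ESC Oct4 peak overlapped 35.7%, 9.07% and 15.1%. The Oct1 difference was present away from gene ends, where 53.9% of 1487 lost, 29.5% of 505 kept and 34.1% of 1328 gained sites had an ESC Oct1 peak, and it was larger at gene ends, where the shares were 45.2%, 16.2% and 5.52%. For ESC Oct4 peaks the order depended on position. Away from gene ends they overlapped 38.3% of lost, 19.8% of kept and 41.1% of gained sites, and at gene ends 28.6%, 6.74% and 5.49%. Lost sites were weak as a whole, with a median day 3 score percentile of 25.8 against 63.5 for kept sites, and gained sites had a median day 6 percentile of 37.3 against 72.6 for kept ones. Of the 30 lost sites with the highest day 3 scores, 29 had an ESC Oct1 peak, and of the 30 gained sites with the highest day 6 scores none had.

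Read by gene, a gene being called bound where a peak lay inside it or up to 10 kb away, 5389 of 21887 protein-coding genes (24.6%) were bound at day 3 and 9087 (41.5%) at day 6. Genes with peaks on both days numbered 4505 (20.6%), those with a day 3 peak only 884 (4.04%) and those with a day 6 peak only 4582 (20.9%). Of the genes with a day 3 peak, 16.4% had none at day 6. A kept gene need not have kept the same site, and 89.7% of the 4505 did have a kept site. These shares are the background for every gene family below, in which the members that share a peak with a neighbour are not independent. The window also credits a gene with peaks at a neighbour's promoter, and this is said below where a named member's peak lies more than 1 kb from its own start and covers that of another protein-coding gene. The day 6 list is the longer one. Cut to the 4867 highest scores it gave 6599 genes, with 3800 kept, 1589 lost (29.5% of those with a day 3 peak) and 2799 gained. Of the 50 gene lists 41 had more genes bound at day 6 than at day 3, and with the shortened list 11 of these 41 had fewer.

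**Figure D2:**
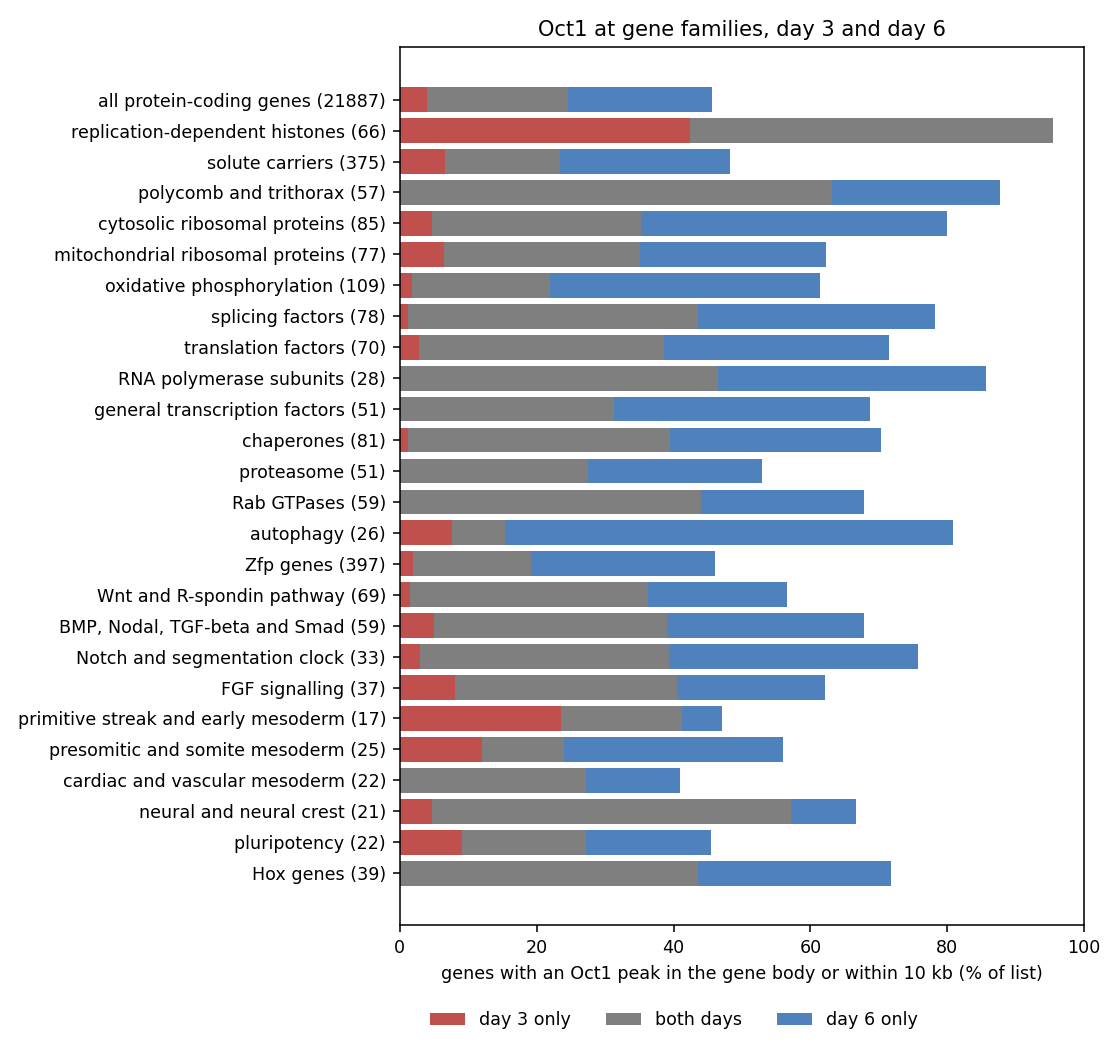
Share of each gene list with an Oct1 peak inside the gene or up to 10 kb away at day 3 only (red), on both days (grey) or at day 6 only (blue); the number of genes stands in brackets. The histone genes have no blue segment and the largest red one (42.4%), while polycomb and trithorax, RNA polymerase, general transcription factor, proteasome, Rab, cardiac and Hox genes have no red one.

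The replication-dependent histone genes, which supply the nucleosomes of S phase, went against the trend of the lists. Of 66 histone genes in the list, 63 (95.5%) were bound at day 3 and 35 (53.0%) at day 6. No gene was gained, and 28 were lost, which is 44.4% of those with a day 3 peak against 16.4% over all genes. By type, 7 of 15 H2B, 8 of 16 H2A, 8 of 14 H4 and 3 of 6 H1 genes were lost, and 2 of 12 H3 genes were. The 10 kb window credits H3 genes with kept peaks at neighbouring histone genes, and with peaks required within 1 kb of a gene end 8 of 12 H3, 8 of 13 H2B, 8 of 13 H2A, 11 of 13 H4 and 4 of 5 H1 genes were lost. Counted as sites within 10 kb of a histone gene, 34 were lost, 11 kept and none gained, so 75.6% of the sites were lost (60.5 to 87.1), against 41.6% of all sites with a day 3 peak. A high rank alone went with fewer losses. Among all day 3 sites in the highest decile of scores without those at histone or snRNA genes, 80 of 426 were lost (18.8%, 15.2 to 22.8). Among histone sites of that decile 18 of 27 were lost (66.7%, 46.0 to 83.5). The lost histone sites had a median day 3 percentile of 90.5, with a range from 39.9 to 97.5, so most of them were strong peaks. All 11 kept histone sites had a lower percentile at day 6 than at day 3 among the kept sites, with a median difference of -74.7 points. With peaks required within 1 kb of a gene end the counts were 56 genes at day 3 and 17 at day 6, and with a window of 50 kb they were 63 and 54.

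In the large histone cluster on chromosome 13 (chr13:23526044-23769412, 243 kb, 29 histone genes), 23 day 3 peaks had percentiles from 47.2 to 97.7 with a median of 93.3. The 6 day 6 peaks of the same stretch lay between 12.4 and 46.3, with a median of 25.6, so the percentiles of the day 6 peaks all lay below every day 3 percentile. H1f2, a linker histone gene, lay at rank 118 of 4867 at day 3 and at rank 6041 of 7758 at day 6. The peak next to the H2A and H2B genes H2ac7 and H2bc7 lay at rank 179 and then 5502, and that of H2ac6 and H2bc4 at rank 112 and then 4159. The promoter sites of H1f3 (day 3 rank 123) and H3c6 (rank 216) and, in another stretch of the chromosome, those of H2bc14 (rank 169) and H3c10 (rank 233) had no day 6 peak. H2bc12, whose promoter is printed above, shared a lost peak of rank 607 with H2ac12, and H2bc3 had overlapping peaks at its promoter at rank 2190 and then 6789. The day 3 peak holds the octamer of H2bc3, and the day 6 peak ends 54 bp short of it. Many histone genes are near-identical copies, and how the authors placed reads that fit several copies is not known.

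**Figure D3:**
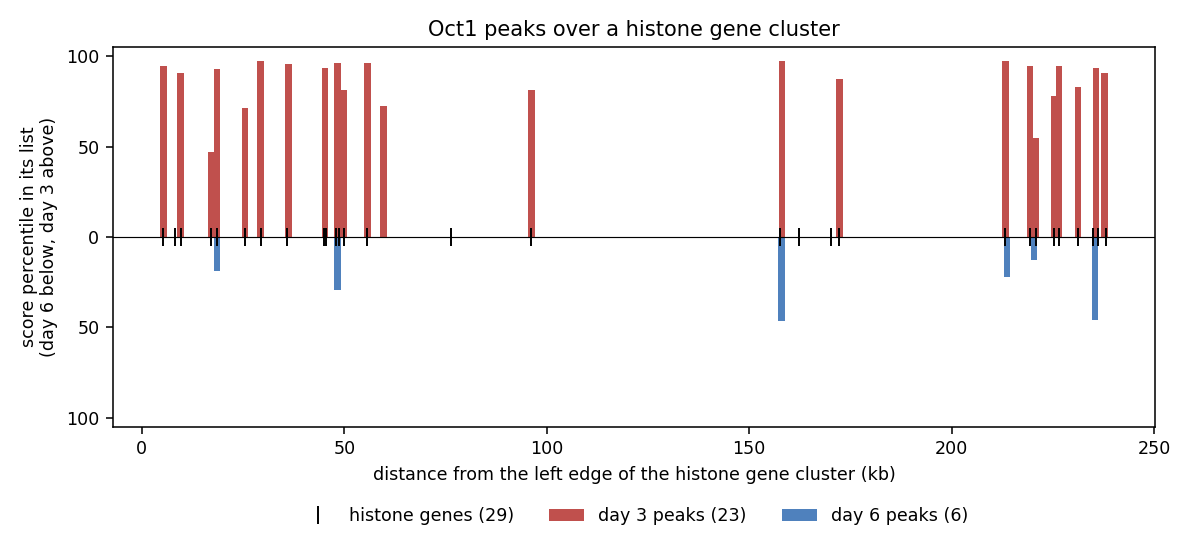
Oct1 peaks over the histone gene cluster on chromosome 13, with distance in kb from its left edge on the x axis and the score percentile within each list on the y axis, day 3 upwards (23 peaks) and day 6 downwards (6 peaks). Black ticks are the 29 histone genes; the day 3 peaks have a median percentile of 93.3 and the day 6 peaks one of 25.6.

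The snRNA genes were the other textbook group whose peaks stood lower at day 6. Within 500 bp of an annotated snRNA gene lay 38 sites, of which 17 were lost (44.7%, 28.6 to 61.7), 21 kept and none gained. Over all sites 41.6% of those with a day 3 peak were lost, but few of these were as strong as the snRNA sites, whose median day 3 percentile was 98.3. In the highest decile of day 3 scores 13 of 34 snRNA sites were lost (38.2%, 22.2 to 56.4), against the 18.8% (15.2 to 22.8) given above for sites without histone or snRNA genes. Gained sites made up 50.3% of all sites. With the 10 kb window used for the gene lists, which also takes in peaks of neighbouring genes, 88 of 1004 snRNA genes were bound at day 3 and 110 at day 6, with 22 lost and 44 gained; the shortened day 6 list gave 85 at day 6. Of the kept snRNA sites 20 had a lower percentile at day 6 than at day 3 and 1 a higher one, with a median difference of -15.6 points. The 20 snRNA sites in the highest decile of day 3 scores among kept sites had a median of -16.6, against -2.13 for the 256 sites of that decile without histone or snRNA genes. Nearly all were leading peaks at day 3, since 19 of the 21 kept sites ranked among the first 100 peaks, whereas at day 6 only 1 did. Rn7sk, the RNA that holds the elongation factor P-TEFb inactive, lay at rank 95 at day 3 and 3292 at day 6. Rnu12, the U12 RNA of the minor spliceosome, lay at 78 and then 306, and Rnu2-10, a U2 gene, at 29 and then 120. The U3 genes Rnu3b1 to Rnu3b4, which the gene table used here counts as snRNA genes and which guide ribosomal RNA processing, lay between rank 48 and rank 61 at day 3 and between rank 606 and rank 1084 at day 6. Lost sites included Rnu11 (U11, day 3 rank 92), Rnu7 (U7, which directs histone pre-mRNA processing, rank 199) and Rnu1b1 (U1, rank 367). Within the same distance transfer RNA genes had 4 lost, 8 kept and 17 gained sites (58.6% gained) and small nucleolar RNA genes 4, 8 and 12, which is near the 50.3% gained of all sites. With the 10 kb window 21 of 54 transfer RNA genes with a day 3 peak were lost (38.9%). The snRNA genes are repeated too, so the place of reads among copies is uncertain.

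Several lists of genes with general cell functions had larger gained shares than all genes together. Among the 85 cytosolic ribosomal protein genes 30 were bound at day 3 and 64 (75.3%) at day 6, with 26 kept, 4 lost and 38 gained. Of 109 oxidative phosphorylation genes 24 were bound at day 3 and 65 at day 6, with 22 kept, 2 lost and 43 gained (39.4%, against 20.9% of all genes). Autophagy genes had the largest gained share among the lists drawn in the bars of gene families, with 17 of 26 (65.4%), 2 kept and 2 lost. They include the autophagy kinase gene Ulk1, with a peak 6 bp from its start at day 6 rank 436, and Atg14 (rank 1046), a subunit of the lipid kinase complex that starts autophagosomes. Splicing factors had 33 kept, 1 lost and 27 gained of 78, RNA polymerase subunits 13, 0 and 11 of 28, general transcription factors 16, 0 and 19 of 51, and Rab GTPases 26, 0 and 14 of 59. In these 4 lists, put together with their counts seen, 1 of 89 genes with a day 3 peak was lost, the U1 snRNP gene Snrpc (day 3 rank 1522), against 16.4% over all genes. With the shortened day 6 list 14 of the 89 were lost, against 29.5% over all genes, and in the upper 50% of each list 9 of 50, against 22.4%. Other lists of this kind lost as many as all genes or more, with 5 of 27 mitochondrial ribosomal protein genes (18.5%), 2 of 11 mitochondrial import genes and 2 of 4 autophagy genes. Among the highest gained ribosomal genes were Rpsa at day 6 rank 309 and Rpl23 at 462, and among the lost ones were Rplp1 (day 3 rank 1333), Rpl24 (2334, at the start of its neighbour Zbtb11) and Rps27a (2886). Among oxidative phosphorylation genes Cox4i1 was gained at rank 618 and Ndufb10 at 2495 by a peak 103 bp from its start, beside a peak of rank 732 at the start of Rps2. With the day 6 list cut to the length of the day 3 list, the day 6 count was 51 ribosomal protein genes in place of 64, 47 oxidative phosphorylation genes in place of 65 and 12 histone genes in place of 35, and over all genes 6599 in place of 9087.

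The gained sites with the highest day 6 scores lay mostly at promoters. Of the 10 highest that lay at a protein-coding gene, 8 were within 1 kb of an annotated start, none overlapped an ESC Oct1 or Oct4 peak, and their ranks ran from 95 to 185. They lay at Wdr20, Sptbn4, 1810037I17Rik, Psma2 (a proteasome subunit, which shares its promoter region with Mrpl32), Sgta, Wdr45b, Ccnt2 (a cyclin of P-TEFb), Clpx (the unfoldase of a mitochondrial protease), Pttg1ip and Spag9. Wdr20 had the highest score, 2946, and Sgta, printed above, had 2581. Of the 10 lost sites with the highest day 3 scores chosen in the same way, all 10 overlapped an ESC Oct1 peak, 5 an ESC Oct4 peak, and 4 were within 1 kb of a start. Their ranks ran from 27 to 108. They lay at Hormad2 (a meiotic chromosome gene, score 8434), Rdm1, Prox2, Epn2, Slc8b1, Them7, Eapp, Nova2, Kcnc1 and Npas4 (an activity-regulated gene of neurons). The sites named for Rdm1 and Eapp are snRNA sites of the group above. The strongest lost site of all, with score 15892 and rank 15, lay at chr15:84621651-84622670 inside the lncRNA gene Gm34201.

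A small set of sites led both lists. Ranks 1 to 5 of day 3 were Ndufa4l2 (score 162276), Polr2a (the catalytic subunit of RNA polymerase II), Zmiz2, Kdm2b and Crlf2. At day 6 Zmiz2 ranked 1, Kdm2b 2, Crlf2 3, Ndufa4l2 4 and Polr2a 7. All 5 had an ESC Oct1 peak. Kdm2b is a member of the polycomb and trithorax list, in which 36 of 57 genes (63.2%) were bound at day 3 and 50 (87.7%) at day 6. None of the 36 was lost, against 16.4% over all genes, and 14 were gained. The window takes in the gene body, and these genes are longer, with a median of 43134 bp against 17169 bp over all genes. With peaks within 1 kb of a gene end the counts were 25 kept, none lost and 19 gained, and with the day 6 list cut to the length of the day 3 list 3 were lost. Cbx2 and Cbx8, chromodomain genes that lie side by side, shared a peak at ranks 675 and 56, and Kdm1b, a histone demethylase gene, lay at 198 and 64. Pcgf1, a subunit of the polycomb complex that Kdm2b recruits, was among the 10 largest rank gains, at 3245 and 807. Gained members included Bap1, a histone H2A deubiquitinase, at day 6 rank 817, and Ring1, a ubiquitin ligase, at 1714.

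Hox genes, the targets of polycomb that set position along the body axis, had 17 members with a day 3 peak and 28 with a day 6 peak out of 39, all 17 being kept and 11 gained. This depends on the weaker day 6 peaks. With the day 6 list cut to the length of the day 3 list, 5 Hox genes were bound at day 6, with 4 kept, 13 lost (76.5%, against 29.5% of all genes) and 1 gained, and the upper 50% of each list gave 14 genes at day 3 and 4 at day 6. Within 1 kb of a gene end 3 were kept, 3 lost and 3 gained. Because neighbours share peaks, the 28 genes bound at day 6 rest on 4 kept and 11 gained sites, and 3 further sites were lost. The 2 strongest were at the posterior end of their clusters, Hoxa13 at rank 277 and then 110 and Hoxc13 at rank 503 and then 137. Hoxb1, at the anterior end, was gained at rank 3999. In the Hoxb and Hoxd clusters no site was kept, and the genes counted as kept had different peaks on the 2 days.

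Wnt and R-spondin pathway genes are those on which Rspo3 acts. Of 69 genes 25 (36.2%) were bound at day 3 and 38 (55.1%) at day 6, with 24 kept, 1 lost and 14 gained. The gained share, 20.3%, was near the 20.9% of all genes. With the day 6 list cut to the length of the day 3 list these became 17 kept, 8 lost and 6 gained. Gains then no longer outnumbered losses, and the lost share of genes with a day 3 peak was 32%, against 29.5% over all genes. Among the receptors of R-spondins, Lgr4 had a peak 58 bp from its start at rank 137 of 4867 and then 2446 of 7758. On the scale of kept sites this is percentile 96.2 and then 45.0. Lgr5 and Lgr6 and the 4 R-spondin genes had no peak on either day. The membrane ubiquitin ligases that R-spondins remove from the cell surface both kept their site, Rnf43 moving from percentile 42.3 to 91.7 and Znrf3 from 88.7 to 90.8, but the Rnf43 site lies 37578 bp from its annotated start, outside the gene and over the start of Supt4a. Among Frizzled receptors, Fzd5 kept a peak at its start at rank 413 and then 134, and Fzd7 gained one at its start at rank 3590. The co-receptor gene Lrp5 lost an intragenic peak of day 3 rank 442 and had 2 weak gained ones, and Lrp6 was gained at rank 4405.

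Downstream in the same pathway, Tcf7l2, a nuclear partner of beta-catenin, kept a peak 180 bp from its start at ranks 127 and 190. Ctnnb1, the beta-catenin gene itself, kept its promoter peak at percentile 50.9 and then 61.6 of kept sites. Axin2, a feedback inhibitor and common readout of the pathway, had no day 3 peak and a day 6 peak 516 bp from its start at rank 2208, and Axin1, its relative in the destruction complex, moved from percentile 17.5 to 73.7. The scaffold gene Dvl2 was gained with a peak 43 bp from its start at rank 716, and its other gained peaks (ranks 539, 1326 and 6418) lie over the starts of Phf23 and Acadvl. Sfrp2, a secreted Wnt antagonist with an octamer 47 bases before its start, moved from rank 883 to rank 5757. The ligand gene Wnt3a was the only lost member, with an intragenic peak of low day 3 rank (4506).

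The BMP, Nodal, TGF-beta and Smad list holds the direct targets of LDN-193189. Of 59 genes 23 were bound at day 3 and 37 at day 6, with 20 kept, 3 lost and 17 gained, and 14, 9 and 8 with the shortened day 6 list. Among type I receptors Bmpr1a was gained 164 bp from its start at rank 3154, Acvr1 was gained 492 bp from its start at rank 5476, and Acvrl1 was kept at ranks 850 and 1464. The type II receptor gene Bmpr2 was gained at rank 2585 and Acvr2b kept at ranks 1042 and 798. Of the Smad genes that transmit BMP signals, Smad5 was gained at its start (rank 3764), Smad9 was gained at rank 3442 at a site 52263 bp from its annotated start, and the common partner Smad4 was gained at rank 1139. Smad2, which transmits Nodal and activin signals, was kept at rank 773 of 4867 and then 1040 of 7758. Id3, an immediate target of BMP signalling, kept a promoter peak whose percentile among kept sites went from 84.8 to 47.5. Bmp4 kept an intragenic peak at ranks 1810 and 6322. The lost members were Lefty2 (day 3 rank 2449) and Gdf3 (2886), which belong to Nodal signalling, and Nog (3688), which encodes the BMP antagonist noggin.

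Genes of the primitive streak and early mesoderm had fewer peaks at day 6 than at day 3, in spite of the longer list. Of 17 genes 7 were bound at day 3 and 4 at day 6, with 3 kept, 4 lost and 1 gained. Cdx2 had a promoter peak 101 bp from its start at day 3 rank 812 and none at day 6. Fgf8, a growth factor of the streak, lost a peak of rank 886, Eomes, a T-box regulator of the streak, one of rank 2154 at a distance of 8556 bp, and Wnt3a the weak one given above. Foxa2, a regulator of endoderm and axial mesoderm, kept a promoter peak that moved from rank 513 to rank 6058, or from percentile 85.9 to 5.86 of kept sites. Lhx1 moved the other way at a site 11949 bp from its start, over the start of Aatf, from rank 1117 to 289, and Snai1 was gained at the low rank 7024. Wnt3, a ligand of the streak, counted as kept with weak peaks at different sites (ranks 4050 and 7265). The gene for the streak regulator T (brachyury), Mixl1 and Mesp1 had no peak on either day. With 17 genes in the list each gene weighs heavily, and a window of 50 kb gave 10 genes at day 3 and 11 at day 6.

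Presomitic and somite genes had 6 members with a day 3 peak and 11 with a day 6 peak out of 25, with 3 kept, 3 lost and 8 gained, and 3, 3 and 3 with the shortened day 6 list. Tbx6, which specifies presomitic mesoderm, was counted as kept for a site 4523 bp from its start at rank 1908 and then 659, which is the octamer promoter of its neighbour Ypel3. Dll1, a Notch ligand of the presomitic mesoderm, kept its promoter peak at rank 648 and then 2514. The lost members were Pcdh8 (paraxial protocadherin, promoter peak of day 3 rank 532, with an octamer 47 bases before the start), Pax7 (best rank 895) and Tcf15 (rank 3656). The gained members included Foxc2 (day 6 rank 1191), Dll3 (2208) and Ripply2 (2636), the Dll3 peak lying over the start of Timm50, the Ripply2 peak over that of Cyb5r4 and the Foxc2 peak outside the gene, and Meox1 and Pax3 at 6114 and 6957. In the Notch list, which drives the segmentation clock, 12 of 33 genes were kept, 1 lost and 12 gained. Jag2, a Notch ligand, kept a promoter peak at ranks 7 and 10, and Hes5, a Notch effector, a site at ranks 37 and 25 that lies over the start of Pank4. Notch1 (ranks 1154 and 3942), its feedback inhibitor Nrarp (1121 and 4386) and the ligand gene Jag1 (750 and 1983) stood lower at day 6. Of the 11 kept sites of the Notch list 5 fell by 25 points or more and none rose by as much, against 14.8% and 15.4% of all kept sites.

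Other lineages were covered for comparison. All 6 cardiac and vascular genes with a day 3 peak kept one, and 3 of 22 were gained. With the shortened day 6 list 3 of the 6 were lost and none gained, and in the upper 50% of each list all 5 with a day 3 peak were lost. Of their 6 kept sites 3 fell by 25 points or more, against 14.8% of all kept sites, among them Runx1 (ranks 661 and 4044) and Foxf1 (996 and 4857). In the neural list 11 of the 12 genes with a day 3 peak were kept and 1 was lost (8.33%, against 16.4% over all genes). Kept genes included Zic1 (ranks 36 and 20), Tfap2a (257 and 73) and Pax6 (98 and 2385). Of the 12 kept sites of this list 3 fell by 25 points or more and 0 rose as much, against 14.8% and 15.4% of all kept sites. Of 17 myogenic regulators 5 were bound at day 3 and 7 at day 6. This direction turned with the shortened day 6 list (5 and 3) and in the upper 50% of each list (4 and 2). Eya2 (ranks 1638 and 6437) kept a site that fell by 25 points or more, Mef2d kept its promoter peak (4210 and 4527), and Six4 gained one at its start (3573) and lost one at the start of Mnat1 (1285). Pax7 was lost, and the gained members included Mef2a (5912) and Pax3. In the endoderm list 4 of 16 genes were bound at day 3 and 3 at day 6, but 2 and 3 with peaks required within 1 kb of a gene end. Among them Foxa1 was lost (4506), Foxa3 gained (1165), Gata6 kept (4286 and 6804) and Foxa2 kept as given above. A gained site of Foxa3 lies over the start of Irf2bp1. Of the pluripotency genes 6 of 22 were bound at day 3 and 8 at day 6, with 4 kept, 2 lost and 4 gained, and 5 were bound at day 6 with the shortened list. Zfp42 (Rex1), a marker of undifferentiated ESCs, lost a promoter peak of day 3 rank 1072 that was also an ESC Oct1 peak, and Utf1 lost a peak of rank 3347 that lay 6924 bp from its start. Pou5f1, which encodes Oct4, kept a site 8178 bp from its start, over the starts of Tcf19 and Cchcr1, at ranks 2231 and 2119, and Sox2 kept its promoter peak at 2154 and 1812. Pou2f1, the gene of Oct1 itself, kept a promoter peak at ranks 517 and 219. Solute carrier genes had 63 kept, 25 lost and 93 gained of 375. The lost were 28.4% of those with a day 3 peak, against 16.4% over all genes. With the shortened day 6 list these shares were 44.3% and 29.5%. Olfactory receptor genes, which are silent outside sensory neurons, had 11 of 1107 genes with a day 3 peak and 7 with a day 6 peak. In the protocadherin list, which does not hold Pcdh8, all 21 genes counted as lost (Pcdhga1 and its neighbours in the cluster) share 1 day 3 peak of rank 2163.

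The scores of the 2833 kept sites correlated across sites with a Spearman coefficient of 0.61, a description over sites that share 2 libraries. Re-ranked among kept sites, 1978 (69.8%) stayed within 25 percentile points, 435 (15.4%) rose by at least 25 and 420 (14.8%) fell by at least 25. Percentiles within the whole lists, rather than among kept sites, gave 516 rises and 242 falls, with a median change of 5.66 points. Sites that fell overlapped an ESC Oct1 peak in 33.3% (28.8 to 38.1), sites that rose in 7.82% (5.47 to 10.8) and those in between in 17.8%. A midpoint within 1 kb of a gene end was found for 73.8% of sites that fell (69.3 to 78.0) and 88.3% of sites that rose (84.9 to 91.1). Of the 10 largest falls at protein-coding genes 9 lay at an ESC Oct1 peak, and 5 were at histone genes, namely H1f2, H3c7, H4f16, H2ac22 with H2bc22, and H2ac7 with H2bc7. The other 5 were Plcd3 (from rank 101 to rank 7040, an intragenic site), Ncan, Vamp1, Gabpb2 (next to Mllt11) and Slc39a10. The fall of Plcd3 was 95.5 points, from percentile 97.1 to 1.61.

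The 10 largest rises lay at Ssna1 with Anapc2, 9430038I01Rik, Anapc13 with Cep63, Ttc19 with Zswim7, Hnrnph1, Spata5 with Nudt6, Mrps28, Use1, Pcgf1 and Myo9a with Senp8. Of these 1 overlapped an ESC Oct1 peak and none an ESC Oct4 peak. The site between Ssna1 and Anapc2 had score 108 and rank 3591 at day 3 and score 1523 and rank 640 at day 6, which is percentile 8.95 and then 81.9 among kept sites. Anapc13, another subunit of the anaphase-promoting complex, shared a site with the centrosomal gene Cep63 at ranks 3143 and 458. Hnrnph1, a splicing regulator, had a promoter site at ranks 3520 and 813. A site at the top of the day 3 ranking can only fall and one at the bottom only rise, and in the highest decile of day 3 percentiles 25.4% of kept sites fell by 25 points or more.

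**Figure D4:**
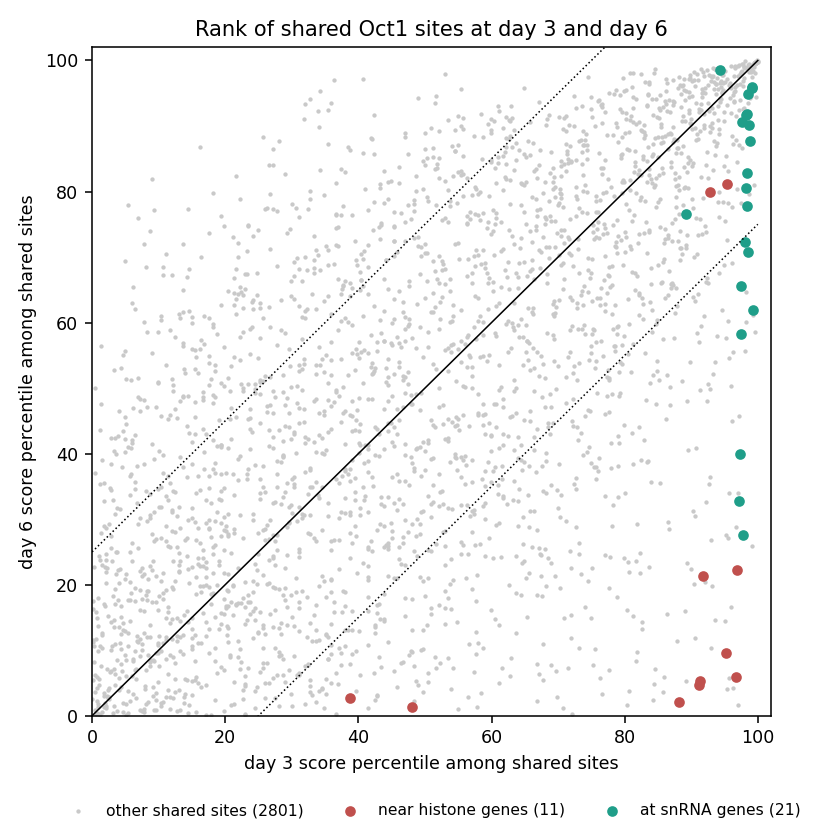
Score percentile of the 2833 kept sites among kept sites at day 3 (x axis) and day 6 (y axis), 1 point per site; the solid line marks equal percentiles and the dotted lines a difference of 25 points. The 11 sites near histone genes (red) all lie below the solid line, and of the 21 sites at snRNA genes (green) 20 do.

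The promoters of these classes differed in the motifs they hold. The 21263 promoter windows of 17492 protein-coding genes, of 300 bases each, were sorted by the class of an overlapping site, which gave 305 lost, 2603 kept and 3669 gained windows and 14686 without a peak. The octamer ATGCAAAT, on either strand, was present in 9.84% of lost windows (6.74 to 13.7), 2.92% of kept (2.31 to 3.64), 0.463% of gained (0.270 to 0.741) and 1.57% of those without a peak, against 1.66% of all windows. With the shortened day 6 list the share was 5.96% of lost, 3.05% of kept and 0.309% of gained windows, so the order held and the lost share was lower. Gained promoters thus held the octamer less often than promoters with no peak, by intervals that do not overlap. Within kept windows the share was 7.44% where the rank fell by 25 points or more (4.78 to 10.96), 2.82% where it stayed within 25 points and 0.411% where it rose (0.0498 to 1.48). By quintiles of the score among kept sites, the octamer share of the highest quintile was 10.9% at day 3 and 7.07% at day 6, and that of the lowest quintile 0.375% and 2.11%. Quintiles 2 and 3 at day 3, counted from the lowest, had 0.360% and 0.568%. A rise of 25 points cannot start from the highest day 3 percentiles, nor a fall from the lowest. The shares by rank change are therefore not independent of the day 3 score. An ETS core (CCGGAAG, either strand) ran in the opposite order, with 12.5% of lost (8.97 to 16.7), 17.2% of kept (15.7 to 18.7) and 23.3% of gained windows (21.97 to 24.7), against 11.6% of all. No end of the octamer matches a start of the ETS core on either strand, so the motifs cannot overlap. Other motifs were searched too, and the ETS core was not the only one that differed between the classes. The GC box (GGGCGG) was in 59.0% of lost, 83.2% of kept and 77.3% of gained windows. The CCAAT box was in 53.1%, 39.3% and 37.8%, and the TATA box (TATAAA) in 12.8%, 4.26% and 3.54%. For the E-box (CACGTG), TCF (CTTTGAT) and CRE (TGACGTCA) motifs the intervals of these classes overlapped. A match is a description of the letters, not evidence of a bound site. An octamer lay wholly inside the day 3 peak in 28 of the 30 lost octamer windows, inside the peaks of both days in 73 of the 76 kept ones and inside the day 6 peak in 11 of the 17 gained ones.

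**Figure D5:**
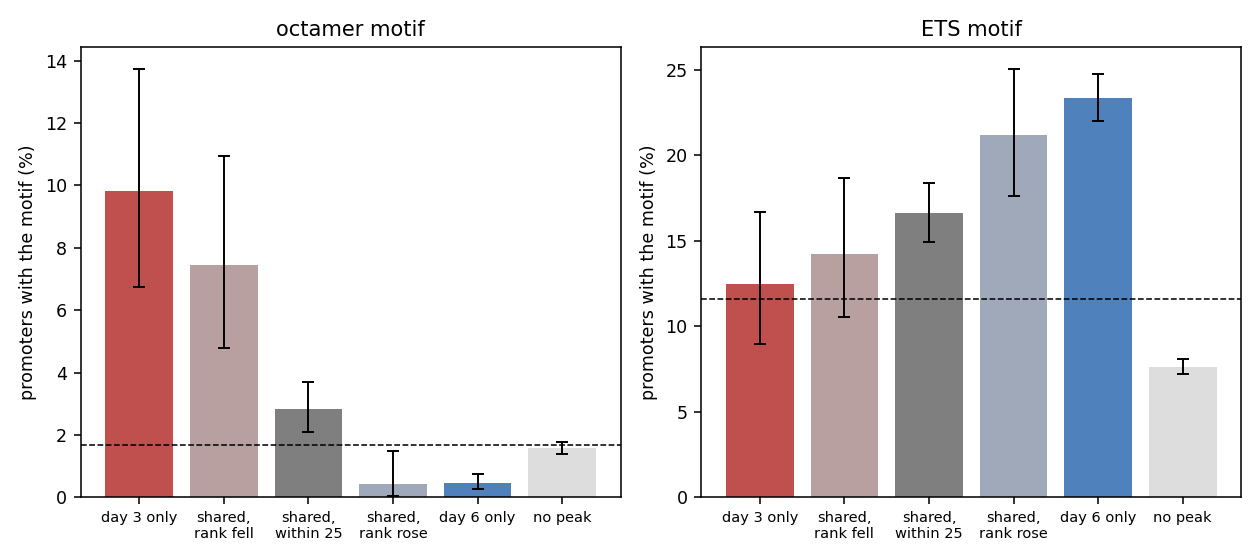
Share of 300-base promoter windows with the octamer (left) and with the ETS core (right) by class of the overlapping Oct1 site, with exact 95% intervals (counting error only); the dashed line is the share in all windows. The octamer share goes down from 9.84% in day 3 only promoters to 0.463% in day 6 only promoters, and the ETS share goes up from 12.5% to 23.3%; with the shortened day 6 list the octamer share of lost promoters is 5.96%.

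Base composition differed between these classes, with a median GC content of 57.3% in lost, 66.3% in kept, 64.3% in gained windows and 52.0% in windows without a peak. Within the middle tertile of GC content (51.7% to 61.7%) the octamer was in 20 of 149 lost windows (13.4%, 8.40 to 19.97), 3.90% of 692 kept (2.59 to 5.63), 0.984% of 1219 gained (0.510 to 1.71) and 0.692% of 4910 without a peak. Within that tertile the gained share is therefore no longer below the share without a peak, while in the GC-poor tertile the shares were 2.07% and 2.67% and in the GC-rich one 0.0868% and 0.326%, with overlapping intervals in each. In the GC-rich tertile none of 93 lost windows held the octamer, which allows up to 3.89%, against 2.23% of kept windows. Across the middle tertile the ETS core was in 14.8% of lost, 19.1% of kept and 25.02% of gained windows. Histone genes accounted for 9 of the 30 lost windows with an octamer, and without histone genes 21 of 267 lost windows (7.87%, 4.93 to 11.8) held it. The others included Cdx2, Pcdh8, Zfp42, Prox2, Fgf12 and 3 windows of the immediate early gene Egr2, whose promoter peak of day 3 rank 335 was lost while a weaker site 11325 bp away, over the start of Ado, was kept. Among histone windows the octamer was in 7 of 15 H2B and 6 of 17 H2A windows, which often face each other across a shared promoter, and in none of 30 windows of H1, H3 and H4 genes, although peaks at these were lost as well. Kept octamer promoters include Gadd45a (ranks 227 and 130, 1.66 points higher among kept sites) and Med16, a Mediator subunit (214 and 44, 4.24 points higher), neither of them near the 25 points of a called rise. The Med16 site is also the snRNA site that stood higher at day 6. The MORE motif was in 5 of all 21263 windows, and 2 of these overlapped a kept site, both of them alternative windows of Kdm2b.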

How the data were processed

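Oct1 ChIP-seq peaks of day 3 and day 6 were used as the authors deposited them, in 1 list per library with 5 columns and no header. Each peak in the deposited lists carries a score, an integer whose unit is not stated, and it was used only for ranks within a list. Reads were aligned to mm10 (the UCSC name of GRCm38) with Novoalign 3.8.2, per the submitters' processing notes. Which caller and threshold gave the peaks, against which control, and the treatment of reads that fit several places, are not given in the sources used here. Peak starts and ends are multiples of 10 bp.

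Overlaps of at least 1 bp were counted with pandas 2.3.3 and numpy 2.4.6 under Python 3.11.15 (intervals with scipy 1.17.1, figures with matplotlib 3.10.9), gave the same counts as bedtools 2.31.1, and were tested on simulated data. A kept site with several peaks took the highest score. Genes came from a RefSeq table of GRCm38.p6 (49943 genes, no strand) and 21263 promoters of 17492 protein-coding genes from RefSeq promoter sequences of the same build; a gene had a peak if one lay in its body or within 10 kb. Rank changes are differences of score percentile among kept sites, called at 25 points. The 50 gene lists and the sites compared were chosen with earlier results of these data known. The named genes were taken from the 10 largest rises and falls, the 10 strongest lost and gained sites at protein-coding genes, the 5 strongest kept sites, up to 4 members per class of a gene list by score, and members with a peak of developmental lists with up to 8 such members; not every gene so chosen is named, and further members are named for their place in the pathway, with their values seen. Alternatives varied the overlap, list length, gene window and promoter set. Promoter alternatives were chosen after seeing the data. Some single-gene results are not reported here.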

Additional observations from a re-analysis of the deposited data

How the results depend on the processing

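Of 45 alternative values of the main results 17 stayed close to the reported one. The direction of a gene list, meaning more or fewer genes bound at day 6, turned in 15 of 50 lists under at least 1 alternative. The shortened day 6 list turned 11 from more to fewer, among them Hox (17 and 5), cardiac (6 and 3), Wnt (25 and 23), BMP (23 and 22), pluripotency, neural, snRNA and transfer RNA genes. The upper 50% of each list turned 3, namely Hox (14 and 4), cardiac (5 and 0) and myogenic genes (4 and 2). A 1 kb limit turned 2, namely endoderm (2 and 3) and snRNA genes (38 and 26). A 50 kb window turned 3, among them the primitive streak list (10 and 11). With each peak covering at least 50% of the other, 55.2% of day 3 and 34.6% of day 6 peaks were shared. Shortening the day 6 list to 4867 peaks gave 49.6% and 49.4%, with 1589 genes lost and 2799 gained, 34.1% of lost, 84.5% of kept and 85.9% of gained sites at a gene end, and the octamer in 5.96% of lost promoters. The upper 50% of each list gave 67.8% and 42.5% shared, 2539 genes kept, 2922 gained and a Spearman coefficient of 0.51. With peaks within 1 kb of a gene end 426 genes were lost and 2634 kept, and with 50 kb 8084 were kept. Ranking within whole lists gave 516 sites with a rise and 242 with a fall. Within 5 kb of a gene end lay 48.9% of lost, 92.4% of kept and 85.4% of gained sites, and within 1 kb of a start 18.6%, 74.5% and 64.7%. In promoters at or below the median GC content the octamer share was 15.4% for lost, 4.53% for kept and 2.04% for gained, and 1 promoter per gene or per site left these shares inside their intervals. The cause of these shifts was not tested beyond what each construction gives (fewer peaks, a wider window). Of 600 alternative counts for gene lists 302 were within 1.5 times the reported count. No paired analysis was possible because each day has 1 library. Depth, the caller's threshold and antibody yield on each day are unknown, so numbers of lost and gained peaks cannot be told apart from a difference in sensitivity between the lists, while ranks within a list do not depend on its overall scale.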

Other observations

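Genes of the cell cycle engine and of FGF signalling had kept sites that stood both higher and lower at day 6. Of the 11 kept sites at cyclin and cyclin-dependent kinase genes 5 fell by 25 points or more and 1 rose as much, against 14.8% and 15.4% of all kept sites. The D-type cyclin genes Ccnd1 and Ccnd2, which couple growth signals to the cycle, stood at ranks 889 and 286 of 4867 at day 3 and at ranks 4138 and 3298 of 7758 at day 6. Their partner kinase gene Cdk4 gained a peak 5 bp from its start at rank 216, and its kept site, over the start of Marchf9, had ranks 982 and 3091. Ccne1, a cyclin of S-phase entry, stood at 672 and then 477. In the FGF list 12 of 37 genes were kept, 3 lost and 8 gained, and with the shortened day 6 list 8, 7 and 7. Of its 9 kept sites 2 rose and 1 fell by 25 points or more, near the shares of all kept sites. Etv5, a transcription factor induced by FGF, had ranks 149 and 174, Grb2, an adaptor of receptor tyrosine kinases, had 691 and 58 at a site 8707 bp from its start, and the feedback phosphatase gene Dusp6 had 1317 and 6023. These values have no replicate and no test.

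Lists of general cell function differed in how their kept sites moved. Over all kept sites 15.4% rose by 25 points or more and 14.8% fell. Among the 26 kept sites at translation factor genes 10 rose by 25 points or more and 2 fell, among the 37 at splicing factor genes 10 rose and 3 fell, and among the 23 at mitochondrial ribosomal protein genes 5 rose and 1 fell, a share of rises near that of all sites. Cytosolic ribosomal protein genes had 1 rise and 3 falls among 24, RNA polymerase subunits 2 and 4 among 13, mitochondrial import genes 0 and 3 among 8, and proteasome genes 1 and 1 among 14. The highest kept members included Eif3k, a subunit of an initiation factor, at ranks 239 and 42 (over the start of Actn4), Fau and Mrpl49, which share a site at ranks 563 and 38, and Nup160, a nuclear pore gene, at ranks 64 and 36 (over the start of Fnbp4).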
